A study of Mus musculus with 2 samples.

Results

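Scavenger receptors are surface proteins that bind modified lipoproteins, microbes and dying cells. Cd5l is a protein that macrophages secrete, made of cysteine-rich domains of a kind that only some of these receptors carry. The genes described here are Cd36, Msr1, Scarb1, Marco, Olr1, Stab1, Colec12, Cd163, Scarf1 and Cd5l. They were chosen by name, and all 10 have a row among the 50608 rows of the deposited expression table. Peritoneal macrophages of C57BL6J mice were sequenced as RNA in 2 libraries, 1 per treatment. The control cells received the solvent DMSO. The other cells received GW3965, a compound that activates LXRs (liver X receptors), which sense oxidised cholesterol in the nucleus. Both libraries were labelled as a pool of males and females of developmental stage E15.5, with no label for dose or time. The second column of the table was read as GW3965 because its name shares its first letters with that sample alone, and its last letters are explained by no label.

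Macrophages take up oxidised low-density lipoprotein (LDL) through receptors of this kind, and this uptake is not shut off by the cholesterol that accumulates, which is how foam cells form. LXR agonists are known for the opposite arm, the export of cholesterol through Abca1 and Abcg1. Cd36 is a textbook target of PPARgamma, and Cd5l, also known as AIM or Sp-alpha, is a known LXR target of macrophages. The comparison asks which of these uptake genes differed in level between cells given the agonist and cells given solvent.

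Values are FPKM, fragments scaled to gene length and sequencing depth, as the authors deposited them. Levels of different genes are set side by side on that scale. Such comparisons depend on the authors' gene lengths, which are unknown. Genes with a mean of at least 1 FPKM are called measured, and a measured gene is called higher or lower where log2 of (GW3965 FPKM + 1)/(DMSO FPKM + 1) reached 1.5-fold. With 1 library per treatment there is no replicate, so no difference has a test or a p-value. Intervals in parentheses are 95% exact conditional intervals on the estimated reads, and they cover counting error only. Reads recovered from the FPKM steps came to 101866010 in the DMSO library and 75287080 in the GW3965 library. The 11889 measured rows had a median log2 ratio of 0.24 and a median plain ratio of 1.25, so a ratio near 1.25 is that of a typical row, and "centred" values below have 0.24 subtracted. In bulk RNA, fewer cells of a type and less RNA per cell cannot be told apart.

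Of the 10 genes, 7 were measured. Cd5l, Msr1 and Cd36 were higher in the GW3965 library, none was lower, and Colec12, Scarb1, Stab1 and Scarf1 stayed within 1.5-fold. Over all measured rows, 3.46% were higher and 0.0757% were lower by the same limit. After centring, Cd5l and Msr1 were still above the limit, where 1.38% of all measured rows were, and 0.336% were lower. For the 7 measured genes the log2 ratios had a median of 0.52, which centring takes to 0.28. The other 3, Marco, Olr1 and Cd163, had a mean below 1 FPKM. Ratios with nothing added were above 1 for 9 of the 10 genes, Scarf1 being the exception. A ratio above 1 is common here, as the median over all measured rows was 1.25. Of the 7 measured genes, 5 lay above the median log2 ratio of measured rows and 2 below it.

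**Figure D1:**
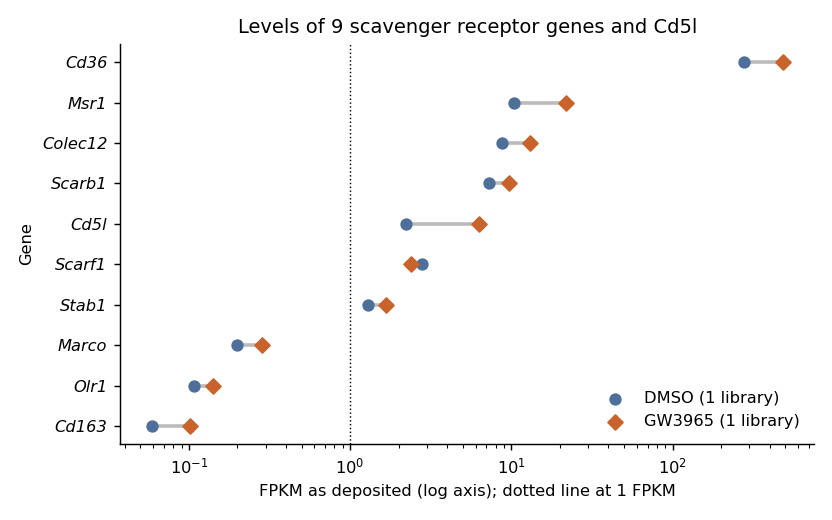
FPKM of each gene in the DMSO library (circles) and the GW3965 library (diamonds) on a log axis, 1 library each, ordered by mean level. Cd36 lies at 277 and 484 FPKM, far above the rest, and Marco, Olr1 and Cd163 lie left of the dotted line at 1 FPKM in both libraries.

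The levels of these genes spanned more than the differences between the libraries. Cd36 alone made up 89.3% of the summed FPKM of the 10 genes in DMSO and 89.7% in GW3965. That sum was 309.5 and 539.1 FPKM, a ratio of 1.74, and without Cd36 it was 33.0 and 55.5 FPKM, a ratio of 1.68. In both libraries the order was Cd36, Msr1, Colec12 and Scarb1 at the top and Stab1, Marco, Olr1 and Cd163 at the bottom. Between them, Scarf1 stood above Cd5l in DMSO and below it in GW3965. With 1 library each, no spread over samples exists against which neighbours in this order could be compared. The order also rests on the gene lengths behind the FPKM values, which are unknown. All exons of Scarb1 cover 8500 bases and its longest transcript 3093, against 6344 and 3636 for Msr1 and 8725 and 8024 for Colec12. Whether the order holds with other lengths was not tested.

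Cd5l had the largest ratio of the 10 genes. It encodes a soluble protein that binds IgM in blood, protects macrophages from death and can enter fat cells through Cd36, where it inhibits fatty acid synthase. Its level was 2.21 FPKM with DMSO against 6.28 FPKM with GW3965, from an estimated 436 and 915 reads. The ratio was 2.84 (2.53 to 3.19), with a log2 ratio of 1.18 (centred 0.94). On that scale 99.3% of the measured rows lay below it. Among the measured rows its level moved from rank 7805 in DMSO to rank 4543 in GW3965. The gene lies on chromosome 3 of GRCm38 at 87357881 to 87371073, plus strand, with 1 annotated transcript of 6 exons.

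Msr1 and Colec12 are class A receptors, which carry a collagen-like stalk. Msr1, the receptor for acetylated and oxidised LDL known as SR-A or CD204, stood at 10.3 FPKM with DMSO and 21.9 FPKM with GW3965. Its ratio was 2.12 (2.05 to 2.18), its log2 ratio 1.013 and its centred log2 ratio 0.77, above 99.05% of the measured rows. Colec12, a collectin with a C-type lectin head that binds oxidised LDL and sugars, had 8.76 and 12.99 FPKM, a ratio of 1.48 (1.44 to 1.53). With a log2 ratio of 0.52 it stayed below the limit, although 94.96% of the measured rows lay below it. On the deposited scale Msr1 was 1.18 times Colec12 in DMSO and 1.68 times in GW3965, and both factors depend on the gene lengths used. Marco, the third class A receptor, binds bacteria and particles and is given with the low genes below. On chromosome 8 Msr1 spans 39581685 to 39642673, minus strand, and on chromosome 18 Colec12 spans 9707595 to 9882644, plus strand.

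Cd36 and Scarb1 are the class B receptors, each with a short tail at both ends of a large outer loop. Cd36 takes up oxidised LDL and long-chain fatty acids. The DMSO library held 277 FPKM of it and the GW3965 library 484, ranks 68 and 51 among the measured rows, with a ratio of 1.75 (1.73 to 1.76). Its log2 ratio was 0.80, which 98.5% of the measured rows lay below. The centred value of 0.56 fell just under the 1.5-fold limit of 0.58, so Cd36 is called higher as deposited and not after centring. Scarb1, the receptor that exchanges cholesterol with high-density lipoprotein (HDL), had 7.25 and 9.69 FPKM. Its ratio of 1.34 (1.29 to 1.38) was near that of a typical row, with a centred log2 ratio of 0.13. As deposited, Cd36 was therefore 38.1 times Scarb1 in DMSO and 49.9 times in GW3965, factors that also depend on the gene lengths used. Both genes lie on the minus strand of chromosome 5, Cd36 at 17781690 to 17888801 and Scarb1 at 125277087 to 125341094.

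Stab1 and Scarf1 are large receptors with repeated EGF-like domains, known from endothelium and from macrophages. Stab1, which clears SPARC and modified LDL, stood at 1.30 FPKM with DMSO and 1.68 FPKM with GW3965. Its ratio of 1.29 (1.19 to 1.39) held the median ratio of 1.25 within its interval, and its log2 ratio was 0.22 (centred -0.03). Stab1 has 69 exons in its longest coding transcript and occupies 31139013 to 31168641 of chromosome 14, minus strand. It shares 112 bases, 31139013 to 31139124, with Nt5dc2 on the other strand, a gene at 3.82 and 5.63 FPKM. No strand setting is stated, so reads there cannot be assigned. Other annotated genes overlap Scarb1 (Gm42633, 2764 bases) and Colec12 (AC163101.1, 3242 bases, among others) on the same strand. Neither Gm42633 nor AC163101.1 had a row by that name, and whether the authors' annotation held them is unknown. Scarf1, which binds dying cells through C1q, was the only one of the 10 genes with a ratio below 1. Its 2.78 FPKM with DMSO and 2.40 FPKM with GW3965 give a ratio of 0.864 (0.770 to 0.966) from an estimated 790 and 504 reads. Its log2 ratio was -0.15 (centred -0.40), and 1.58% of the measured rows lay below it. The gene occupies 75513540 to 75526582 of chromosome 11, plus strand.

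**Figure D2:**
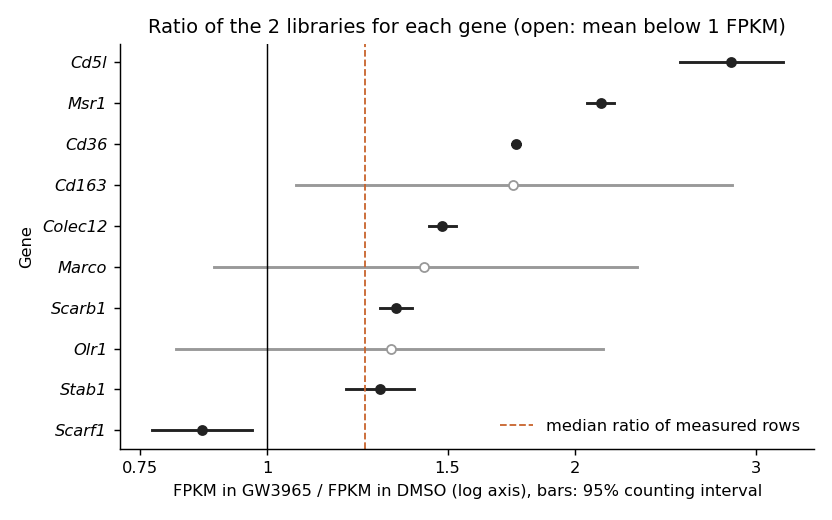
Ratio of GW3965 FPKM to DMSO FPKM for each gene on a log axis, with bars for the 95% counting interval and a dashed line at the median ratio of measured rows, 1.25. Cd5l, Msr1 and Cd36 have narrow bars well right of the dashed line, Scarf1 lies left of 1, and the open points of Cd163, Marco and Olr1 have wide bars that cross the dashed line.

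Set beside counting error alone, the ratios fell into an order. The interval of Cd5l lay above that of Msr1, and that of Msr1 above that of Cd36. Colec12 came next, above Scarb1, while the intervals of Scarb1 and Stab1 overlapped. Scarf1 lay below all of these. Of the 10 intervals, 6 excluded the median ratio of 1.25, Cd5l, Msr1, Cd36, Colec12 and Scarb1 from above and Scarf1 from below. The same share over all measured rows was not computed, so this count cannot be called particular to these genes. Stab1, Marco, Olr1 and Cd163 were not distinguishable from it at this depth.

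Marco, Olr1 and Cd163 were low in both libraries. Marco stood at 0.199 FPKM with DMSO and 0.283 FPKM with GW3965, a ratio of 1.42 (0.886 to 2.3), from an estimated 37 and 39 reads. Olr1, the lectin-like oxidised LDL receptor LOX-1, had 0.107 and 0.141 FPKM, a ratio of 1.32 (0.815 to 2.13), from 38 and 37 reads. Cd163, which takes up haemoglobin bound to haptoglobin, had 0.0587 and 0.102 FPKM, a ratio of 1.74 (1.07 to 2.84), from 32 and 41 reads. The steps of the FPKM values themselves gave whole-read pairs of 39 and 41 for Marco and 40 and 39 for Olr1, close to these estimates. For Cd163 they gave a ratio of 7 to 9 reads or a multiple of it.

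Rows this low were compared with 1083 olfactory receptor rows, genes with little expression outside sensory tissue. Their median level was 0.0261 FPKM with DMSO and 0.0690 FPKM with GW3965. Marco lay above 99.2% of them in DMSO and 99.3% in GW3965. Olr1 lay above 98.2% in DMSO and 91.0% in GW3965, and Cd163 above 87.9% and 76.4%. Marco thus stood clear of nearly all such rows, and Cd163 stood within their upper range in both libraries. Low rows had a higher median ratio than measured rows, 1.71 over 5276 protein-coding rows of mean FPKM from 0.05 to 0.3 and a range from 0.812 at the 5th percentile to 5.41 at the 95th. The ratios of Marco and Olr1 were below that median and that of Cd163 close to it. On chromosome 1 Marco occupies 120474538 to 120505024, minus strand. Olr1 and Cd163 are both on chromosome 6, at 129485244 to 129507165 on the minus strand and 124304656 to 124330527 on the plus strand.

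**Figure D3:**
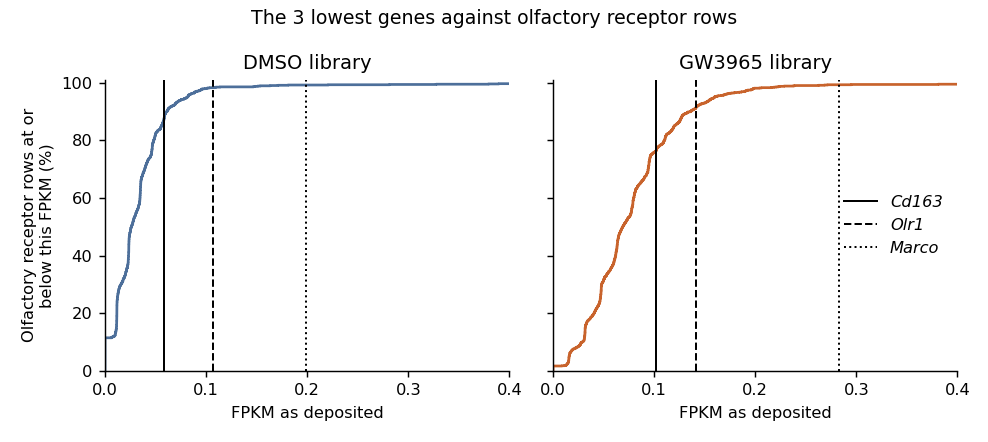
Share of the 1083 olfactory receptor rows (percent, vertical axis) at or below each FPKM (horizontal axis) in the DMSO library (left) and the GW3965 library (right), with lines at Cd163 (solid), Olr1 (dashed) and Marco (dotted). The curve of the GW3965 library is shifted to the right, and the Cd163 line crosses it at 76.4%, against 87.9% in DMSO.

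RefSeq promoter sequences on GRCm38.p6 matched 6 of the 10 genes: Cd36, Marco, Olr1, Stab1, Cd163 and Cd5l. LXRs bind direct repeats of AGGTCA spaced by 4 bases, PPARgamma binds the same letters spaced by 1 base, and PU.1, a factor of all macrophages, binds sites around GAGGAA. The 250 bases upstream of the start are shown for Cd5l and Cd36, which had high ratios, and for Stab1 and Olr1, which did not stand apart from the typical row. Each is written 5′ to 3′ on the strand of its gene, and capitals mark AGGTCA or GAGGAA on either strand.
Cd5l: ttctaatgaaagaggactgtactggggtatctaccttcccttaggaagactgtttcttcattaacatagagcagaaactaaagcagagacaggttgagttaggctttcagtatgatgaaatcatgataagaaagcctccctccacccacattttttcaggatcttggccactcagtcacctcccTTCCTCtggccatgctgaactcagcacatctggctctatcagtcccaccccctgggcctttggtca
Cd36: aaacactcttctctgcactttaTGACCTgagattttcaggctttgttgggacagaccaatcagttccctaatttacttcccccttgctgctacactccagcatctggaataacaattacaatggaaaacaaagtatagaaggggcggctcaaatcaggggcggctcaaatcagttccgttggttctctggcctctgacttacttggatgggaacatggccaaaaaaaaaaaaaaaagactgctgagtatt
Stab1: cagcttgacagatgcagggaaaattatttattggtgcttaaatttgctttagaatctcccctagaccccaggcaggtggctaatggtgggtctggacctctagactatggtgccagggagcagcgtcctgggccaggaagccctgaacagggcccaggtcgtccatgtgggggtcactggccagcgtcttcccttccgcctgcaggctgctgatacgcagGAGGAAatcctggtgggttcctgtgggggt
Olr1: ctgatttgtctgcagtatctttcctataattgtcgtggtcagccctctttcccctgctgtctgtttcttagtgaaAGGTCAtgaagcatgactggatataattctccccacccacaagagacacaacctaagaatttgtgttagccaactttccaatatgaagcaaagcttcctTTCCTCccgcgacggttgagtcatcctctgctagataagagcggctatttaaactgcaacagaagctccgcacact

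These windows are chr3:87357631-87357880 on the plus strand for Cd5l, chr5:17835897-17836146 on the minus strand for Cd36, chr14:31168642-31168891 on the minus strand for Stab1 and chr6:129507166-129507415 on the minus strand for Olr1. The RefSeq start of Cd36 lies inside the gene as GENCODE draws it, 179 bases from the nearest GENCODE transcript start. AGGTCA occurred once each in Cd36, 228 bases upstream, and in Olr1, 175 bases upstream, and in 13.8% of 27018 promoter windows of this length. GAGGAA, found in 23.1% of all windows, occurred in Cd5l, Stab1, Olr1 and Marco. No window of the 6 genes held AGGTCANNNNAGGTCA, found in 0.0111% of all windows, or AGGTCANAGGTCA, found in 0.0370%. The best match to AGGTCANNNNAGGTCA had 4 mismatches in Cd5l, Cd36, Olr1 and Marco and 5 in Stab1 and Cd163, whereas 2.55% of all windows had at most 2. The Cd36 window also holds aggggcggctcaaatc 2 times back to back, starting 111 bases upstream, and an exact tandem repeat of a unit of at least 12 bases occurred in 1.04% of all windows. The Olr1 window holds the AP-1 motif TGANTCA 60 bases upstream, as 6.87% of all windows do. A match of letters is a description, not a binding site.

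**Figure D4:**
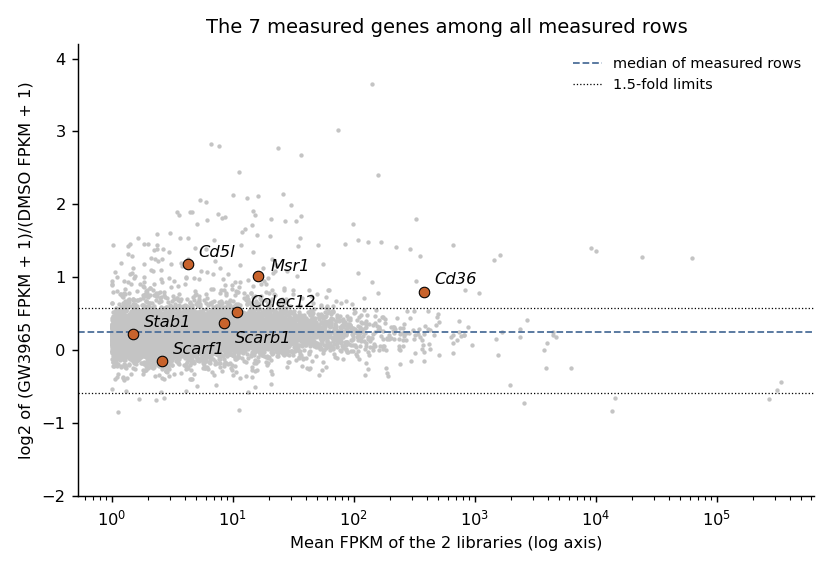
Log2 of (GW3965 FPKM + 1)/(DMSO FPKM + 1) against mean FPKM (log axis) for the 11889 measured rows in grey and the 7 measured genes in orange, with the median of all rows dashed and the 1.5-fold limits dotted. Cd5l, Msr1 and Cd36 lie above the upper limit at mean levels from 4.24 to 380.1 FPKM, and Scarf1 lies at -0.15.

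Other measured genes of the scavenger receptor classes did not reach the limit. Of 20 listed, 19 had a row and 7 were measured, and none of these 7 passed 1.5-fold in either direction on either scale. Among all measured rows the share called higher on the deposited scale was only 3.46%. A count of 0 in 7 genes therefore does not set this list apart. The log2 ratios of these 7 genes had a median of 0.20 (centred -0.04), against 0.52 and 0.28 for the 7 measured genes above. The furthest was Scarb2, a lysosomal class B relative of Cd36 and Scarb1, with 51.3 and 74.5 FPKM and a log2 ratio of 0.53. Lrp1, a large receptor for lipoproteins and protease complexes, had 46.9 and 39.0 FPKM, a log2 ratio of -0.26. The mannose receptor Mrc1 had 12.7 and 15.2 FPKM, and the beta-glucan receptor Clec7a had 100.95 and 118.9 FPKM, log2 ratios of 0.24 and 0.23. Of 9 lectins akin to Colec12 and Olr1, 2 were measured, and neither Clec2d (47.0 and 57.5 FPKM) nor Clec12a (4.44 and 4.67 FPKM) reached the limit.

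**Figure D5:**
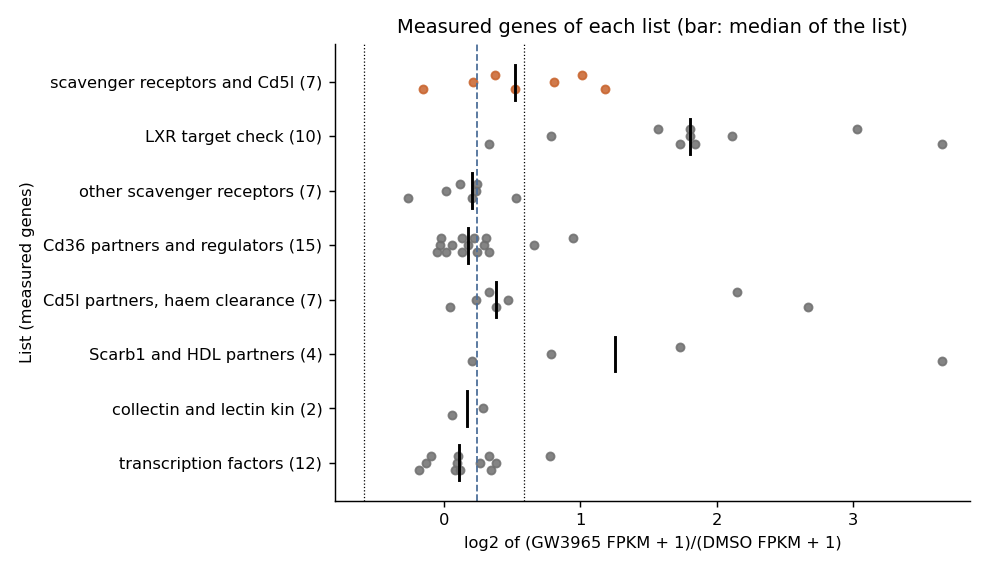
Log2 of (GW3965 FPKM + 1)/(DMSO FPKM + 1) of the measured genes of each list, 1 point per gene, with a bar at each list's median, a dashed line at the median of all measured rows and dotted lines at the 1.5-fold limits. The 7 scavenger receptor and Cd5l genes (orange) have a median of 0.52, between the 0.20 of the other scavenger receptors and the 1.80 of the LXR targets.

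Known LXR targets were mostly higher in the GW3965 library. Of 10 listed and measured, 9 were higher and 0 lower, 8 and 0 on the centred scale, and the median was 1.80. Nr1h3, which encodes LXR alpha, was the exception, with 7.80 and 10.1 FPKM. Cd5l, at 1.18, lay below the median of that list. In the list of Scarb1 and HDL partners, 4 of 8 were measured and 3 were higher, 2 on the centred scale, and the median was 1.26. All 3 of these, Abca1 (log2 ratio 3.65), Abcg1 (1.73) and Apoe (0.78), are also in the LXR target list. Slc9a3r1, a PDZ scaffold protein, had 46.4 and 53.7 FPKM. Pdzk1, the PDZ adaptor that holds Scarb1 in liver, had 0.260 and 0.451 FPKM and was not measured.

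Partners and regulators of Cd36 mostly lay near the typical row, while Cd36 itself was higher as deposited and just under the limit after centring. All 15 were measured, and 2 were higher, 1 after centring, and 0 lower. Their log2 ratios had a median of 0.18 (centred -0.06). Plin2, the lipid droplet coat protein, had 224 and 432 FPKM, a log2 ratio of 0.95. Tlr4 and Tlr6, which can signal together with Cd36, had 10.02 and 16.5 FPKM and 3.94 and 5.20 FPKM, log2 ratios of 0.66 and 0.33. Fabp5, a fatty acid carrier, had 228 and 283 FPKM. Pparg, the receptor for which Cd36 is a target, had 23.7 and 26.9 FPKM, and Fabp4, also a fatty acid carrier, 26.5 and 25.6 FPKM. Their centred log2 ratios were -0.06 and -0.29. Pparg and Fabp4 were picked after their values were seen, and the activity of PPARgamma was not tested.

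Among the partners of Cd5l and genes of haemoglobin clearance, 7 of 10 were measured and 2 were higher on both scales, with a median log2 ratio of 0.39. Over all measured rows, 3.46% were higher as deposited and 1.38% after centring. The 2 were Ighm, the heavy chain of the IgM that carries Cd5l in blood, and Fasn, the fatty acid synthase that Cd5l inhibits. Ighm had 9.26 and 64.4 FPKM and Fasn 8.90 and 42.9 FPKM, log2 ratios of 2.67 and 2.15. A link between these ratios and Cd5l was not tested. Fcmr, the IgM receptor, and Jchain, which joins IgM units, were not measured, at 0.3 and 0.489 FPKM and at 0.069 and 0.132 FPKM. Haem oxygenases, which act after Cd163 has delivered haemoglobin, were present although Cd163 was low. Hmox1 had 31.9 and 44.7 FPKM and Hmox2 22.0 and 29.0 FPKM, both within 1.5-fold.

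The transcription factors listed for scavenger receptor genes were all measured, 12 of 12. Over the list the log2 ratios had a median of 0.11 (centred -0.13). Tfec, Irf8 and Nr1h3, the last being LXR alpha, had log2 ratios of 0.38, 0.34 and 0.33, below the limit. No factor of the list was lower.

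General markers of macrophages were present. Those of resident peritoneal macrophages, and of other cells that could also carry these receptors, were mostly low. All 8 macrophage markers were measured, with a summed level of 5040 FPKM in DMSO and 6038 FPKM in GW3965 and a centred median log2 ratio of 0.02. Lyz2 made up most of that sum, at 4052 and 4822 FPKM. Of the 8, 1 was higher on both scales and 0 lower. This was Mertk, with 6.79 and 13.9 FPKM, a log2 ratio of 0.94 (centred 0.69). Of 6 markers of resident peritoneal macrophages, 1 was measured (Cd93), and the defining factor Gata6 stood at 0.607 and 0.618 FPKM. Beside Cd36, the 6 adipocyte markers were all at or below 0.124 FPKM in both libraries, summing to 0.201 and 0.398 FPKM. Of 6 platelet markers 1 was measured, Pf4, with a sum of 4.55 and 5.50 FPKM for the list. Beside Stab1, Scarf1 and Olr1, 2 of 8 endothelial markers were measured, Kdr and Vwf, and the list summed to 5.52 and 5.44 FPKM, while Cdh5 and Pecam1 stood at or below 0.127 FPKM.

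Stromal cells also express Colec12, so mesothelial and fibroblast markers are given beside it. Of 11 such markers 6 were measured, 1 of them, Dcn, higher as deposited and 0 after centring. Their summed level was 19.9 FPKM with DMSO and 29.7 FPKM with GW3965, a ratio of 1.49 against 1.48 for Colec12, which was itself within 1.5-fold, and their log2 ratios had a centred median of 0.13. Their part in the Colec12 ratio was not tested. B cell markers, 3 of 6 measured, summed to 11.98 and 68.4 FPKM, most of it Ighm, with Cd79a at 1.03 and 1.599 FPKM. Of the dendritic cell list 1 of 6 was measured, Itgax, which macrophages express too, and the sum was 116.2 and 107.5 FPKM. Neutrophil, eosinophil and mast cell markers, 2 of 7 measured, summed to 5.74 and 7.56 FPKM. In these lists no marker was listed at 0 in both libraries.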

How the data were processed

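RNA of peritoneal macrophages was measured in 2 libraries, 1 DMSO and 1 GW3965. The authors deposited 1 table of FPKM values, and the submitters' processing notes name STAR 2.3.0, HTSeq 0.5.4p3 and the builds mm10 and GRCm38, with no role or order. The annotation, strand setting and treatment of reads with several matches are in none of the sources used here. The labels' protocols name a Qiagen kit for total RNA and the Illumina TruSeq RNA kit.

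Low FPKM values (0.02 to 0.3 in DMSO) differed by whole-number ratios once a factor of 1.35 between the libraries was allowed. With a denominator of up to 60 and within the rounding of the last decimal, 96.3% of 23819 such rows gave whole reads, against 1.14% with the factor moved by 1%. Exon lengths of GENCODE M21 (GRCm38), reduced by 99 bases, gave the depths, where 258 of 8903 rows pointed to 1 depth and the runner-up reduction had 75. FPKM is no count, and the authors' own lengths are unknown, so reads per gene are estimates. For a gene of 1 kb, 1 read equals 0.00982 FPKM (DMSO) or 0.0133 FPKM (GW3965). The depth step was tested on data simulated with these same exon lengths, so lengths that differ from the authors' were not covered. The intervals were tested on simulated reads.

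The 10 genes and the 7 gene and 9 marker lists were chosen with earlier results of these data known. All 10 genes are named, with up to 4 measured genes of largest absolute log2 ratio per list. The list of LXR targets is given mainly as counts. A result that the rule would name is not reported here. Symbols were also matched through RefSeq synonyms. Alternatives were pseudocounts of 0.1 and 0.5, other filters, scalings and fold limits, and protein-coding rows only. The longest transcript replaced all exons for the counting intervals alone, not for the levels. Ranks among all rows were also taken, but they follow the FPKM and could not change the order of the 10 genes. Calculations used scipy 1.17.1, pandas 2.3.3 and numpy 2.4.6 under Python 3.11.15, and figures matplotlib 3.10.9.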

Additional observations from a re-analysis of the deposited data

How the results depend on the processing

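No paired analysis was possible because both treatments have a single library. The count of 3 genes higher was 5 with both libraries scaled to the same sum of FPKM. There Scarb1 (log2 ratio 0.62) and Colec12 (0.77) passed the limit, and the median of measured rows was 0.46. Most of that sum lay in 3 rows above 200000 FPKM, which held 79.7% of it in DMSO and 65.9% in GW3965. Cd36 lost its call after centring (0.56), with upper quartiles made equal (0.50) and at 2-fold. Msr1 kept its call under each of the 8 settings of scale, filter and limit (log2 ratio 0.73 to 1.27). Cd5l kept its own under 7 (0.93 to 1.46), and its mean of 4.24 FPKM left it out when only rows averaging 5 FPKM or more were kept, which gave 2 genes higher. Scarf1, left out there too, was below 0 in the others except the same sum (0.04). Centring took Stab1 to -0.03. Over all rows, the 411 higher and 9 lower became 1024 and 20 with a pseudocount of 0.1, 224 and 5 when only rows averaging 5 FPKM or more were kept, 164 and 40 centred, 2604 and 1 with the same sum, 166 and 35 with the same upper quartile, 117 and 0 at 2-fold, and 215 and 3 among protein-coding symbols. The lower rows were 14 with a pseudocount of 0.5 and 17 with no filter. A filter or a symbol limit tests fewer or more rows, and otherwise the cause was not tested. The longest transcript in place of all exons moved the lower bound of Cd163 from 1.07 to 0.996. Depth limits Marco, Olr1 and Cd163, with 32 to 41 estimated reads in each library.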
